A study of Homo sapiens with 21 samples.

Results

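Genes of the contractile apparatus and actin bundles of smooth muscle were followed across 7 groups of cells of IMR90, a widely used human lung fibroblast line. The set was a named list of 42 genes, matched by symbol in the deposited table and kept where the normalised read count was 10 or more in 3 or more libraries. All 42 were listed among the 16383 genes of the table, and 40 passed, of 11579 genes that passed. The 2 below the minimum were MYH11, the smooth muscle myosin heavy chain, with at most 1.92 in any library, and KCNMB1, the beta subunit of the calcium-activated potassium channel, with at most 1.96. The members fell into 5 roles, with 12 thin-filament genes, 8 genes of myosin, its kinase and its phosphatase, 14 genes of adhesion and crosslinking, 2 genes of a receptor and a channel, and 6 genes of transcription factors, their coactivators and the kinases ROCK1 and ROCK2. DES, which codes for an intermediate filament protein, was counted with the thin-filament genes.

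Poly(A) RNA was sequenced from 3 libraries of each group. The proliferating group was wild type and had no treatment per the labels. The other 6 groups were made senescent by irradiation, whose dose is not given in the sources used here, received siRNA at 5 nM with DharmaFECT on days 4 and 7 after it, and were harvested on day 10. Of these, the NT3 and NT4 groups were wild type with the non-targeting siRNAs number 3 and number 4, and the other 4 had siRNA against CCND1 (cyclin D1), against its partner kinases CDK4 or CDK6, or against CDK4 and CDK6 together (dual knockdown). Proliferating cells had neither irradiation nor transfection, so the effects of both treatments cannot be told apart in any comparison with them. The series is 1 cell line, the labels give 1 knockdown per target and no siRNA sequence, and they do not say that replicates came from separate cultures, so p-values measure the spread between these libraries, which may be technical.

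Contraction in smooth muscle and in contractile fibroblasts runs on actin filaments coated with tropomyosin, calponin and caldesmon and pulled by myosin II. Myosin is switched on by phosphorylation of its light chain by myosin light chain kinase and switched off by a phosphatase. Many of these genes carry a CArG box, the DNA motif bound by serum response factor (SRF), which works with the coactivators myocardin, MRTFA and MRTFB. In fibroblasts, high ACTA2 and stress fibres mark the myofibroblast state.

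Per library, 12892442 to 21822152 reads fell in the genes of the table. As a check of the labels, the siRNA targets were read first. CCND1 was at 4198 to 5149 in CCND1 knockdown and at 25615 to 48813 in the 6 controls. CDK4 was at 105.6 to 122.5 in CDK4 and dual knockdown against 1158 to 1356 in the controls, and CDK6 at 727 to 998 in CDK6 and dual knockdown against 4147 to 5689. These genes also moved with siRNAs against the others. CDK4 was below all 6 controls in CDK6 (889 to 1015) and CCND1 knockdown (1072 to 1148). CCND1 was above all 6 in CDK6 (54413 to 57146) and dual knockdown (52700 to 57565.5). All 10 fibroblast markers passed the minimum, with summed levels of 453201 to 868393 that were highest in dual knockdown (683272 to 868393). Of the other lists, 3 of 6 epithelial, 3 of 6 endothelial, 2 of 5 immune and 2 of 6 striated muscle markers passed, the last with a summed level of only 11.4 to 34.9. No listed marker was at 0 in every library. All 6 pericyte markers (cells that share many smooth muscle genes) passed. Their summed level was 8937 to 9069 in proliferating cells, 3821 to 5173 in NT3, 6343 to 6413 in NT4, 7747 to 8617 in CCND1 knockdown, 4797 to 4901 in CDK4 knockdown, 8215 to 8717 in CDK6 knockdown and 6006 to 6580 in dual knockdown. The summed endothelial markers were highest in CDK6 knockdown, at 4093 to 4513 against 2058 to 3723 in the controls. The single genes did not move together. Of the 3 tested, 1 was higher and 1 lower than in the controls by limma at an adjusted p of 0.05 (median log2 difference -0.05). The part of these marker lists in the results on the members was not tested. In such bulk RNA, fewer cells of a type and less RNA per cell cannot be told apart.

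One control library stood apart, the third NT3 column of the table (NT3 replicate 3; the columns carry no replicate numbers, so these follow column order and only name a library). The SD over all tested genes of its log2 deviation from the other 2 NT3 libraries was 0.52, against 0.29 to 0.38 for the 18 libraries of the other groups. Across 11503 genes with an annotated exon length, this deviation had a Spearman correlation of -0.48 with length, against -0.27 to 0.20 in those 18 libraries. Genes with long annotated exons thus tended to read low and those with short ones high. This length adds up the exons of all transcripts of a gene and can exceed that of any 1 transcript. Among the members, long genes such as FLNA (22748 against 40503 and 41325 in the other NT3 libraries) and MYLK (9566 against 16748 and 18238) were low there. The shorter genes MYL6 and CSRP2 were high. TPM1 was high too (14087 against 12300 and 12005), with 14700 bases by this measure against 10860 for FLNA. For TPM1 the measure does not give the length of the expressed transcript. Over the 40 members alone the correlation was -0.69, with -0.63 to 0.50 in the 18 other libraries, and the SD of the deviation was 0.53 against 0.0769 to 0.227. Genes are not independent replicates, and the correlation is a description. For some results that moved without this library the value without it is given below, whether or not the call was lost.

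Most members were lower in senescent controls than in proliferating cells, and most were higher again in CCND1, CDK6 and dual knockdown than in the controls. Against proliferating cells, 30 of the 40 members fell and 2 rose by limma at an adjusted p of 0.05, with a median log2 difference of -0.58 against -0.03 over all tested genes. The background was wide, since 68.6% of all tested genes passed in this comparison, 36.1% lower and 32.6% higher. Against the mean of NT3 and NT4, 31 members rose and none fell in CCND1 knockdown (median 0.42), where 31.0% of all tested genes passed, 16.7% higher and 14.4% lower. In CDK6 knockdown 33 rose and 1 fell (median 0.52), where 41.9% of all genes passed, 21.1% higher and 20.8% lower. In dual knockdown 31 rose and 2 fell (median 0.47), with 44.0% of all genes past the threshold 22.5% higher and 21.5% lower. In CDK4 knockdown 4 members rose and 3 fell (median 0.07), a share near that of all tested genes, of which 16.0% passed, 8.46% higher and 7.55% lower. This count depended on NT3: without NT3 replicate 3, 7 rose and 6 fell beside 23.3% of all genes, and with NT3 as the only control 13 rose and 4 fell beside 25.6%.

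Counted by libraries alone, at 29 members both control groups lay wholly below the proliferating libraries and at 2 wholly above them, against 28.9% and 25.2% of all tested genes. All 3 libraries were above all 6 controls at 28 members in CCND1 knockdown (11.2% of all genes), 29 with CDK6 siRNA alone (14.4%), 24 with both siRNAs (13.8%) and 0 with CDK4 siRNA alone (5.41%). They were below all controls at 0 (9.97% of all genes), 1 (14.1%), 2 (14.5%) and 3 members (5.75%) in the same order.

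The 5 comparisons with the controls share the same 6 libraries, so a low control level enters the fall in senescence and the rise in each knockdown alike. Levels are therefore given for every library below, and knockdowns are also compared with each other and with proliferating cells. The members' summed level, which needs no control, was 2.90 to 2.96% of all normalised reads in proliferating cells, 1.81 to 1.99% in NT3, 2.03 to 2.17% in NT4 and 2.02 to 2.09% in CDK4 knockdown. It was 2.53 to 2.56% in CCND1 knockdown, 2.73 to 2.83% in CDK6 knockdown and 2.58 to 2.64% in dual knockdown, with no overlap between these 3 groups and either the controls or proliferating cells. This sum is weighted to the most abundant members. FLNA, MYH9 and TPM4 had means of 94201, 74062 and 48112 in proliferating cells against 58432, 43264 and 30077 in CDK6 knockdown. The place of proliferating cells in this order therefore need not hold for the other members. By group mean, 18 of the 40 members were highest in proliferating cells, 11 after CDK6, 6 after dual and 5 after CCND1 knockdown, and none in NT3, NT4 or CDK4 knockdown. NT3 was the lowest group for 22 members.

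**Figure D1:**
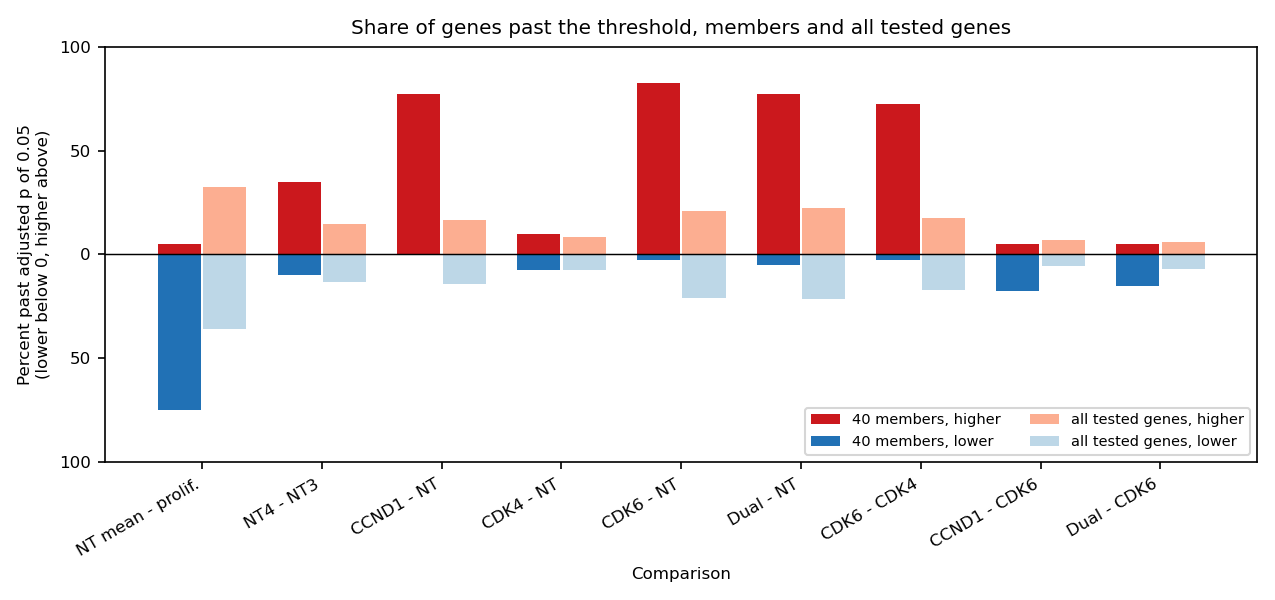
Percent of the 40 members (dark bars) and of all 11579 tested genes (light bars) past a limma adjusted p of 0.05 in each comparison, with higher genes above 0 and lower genes below it. In CCND1, CDK6 and dual knockdown against the controls 31, 33 and 31 of the 40 members were higher, while in CDK4 knockdown 4 were higher and 3 lower.

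**Figure D2:**
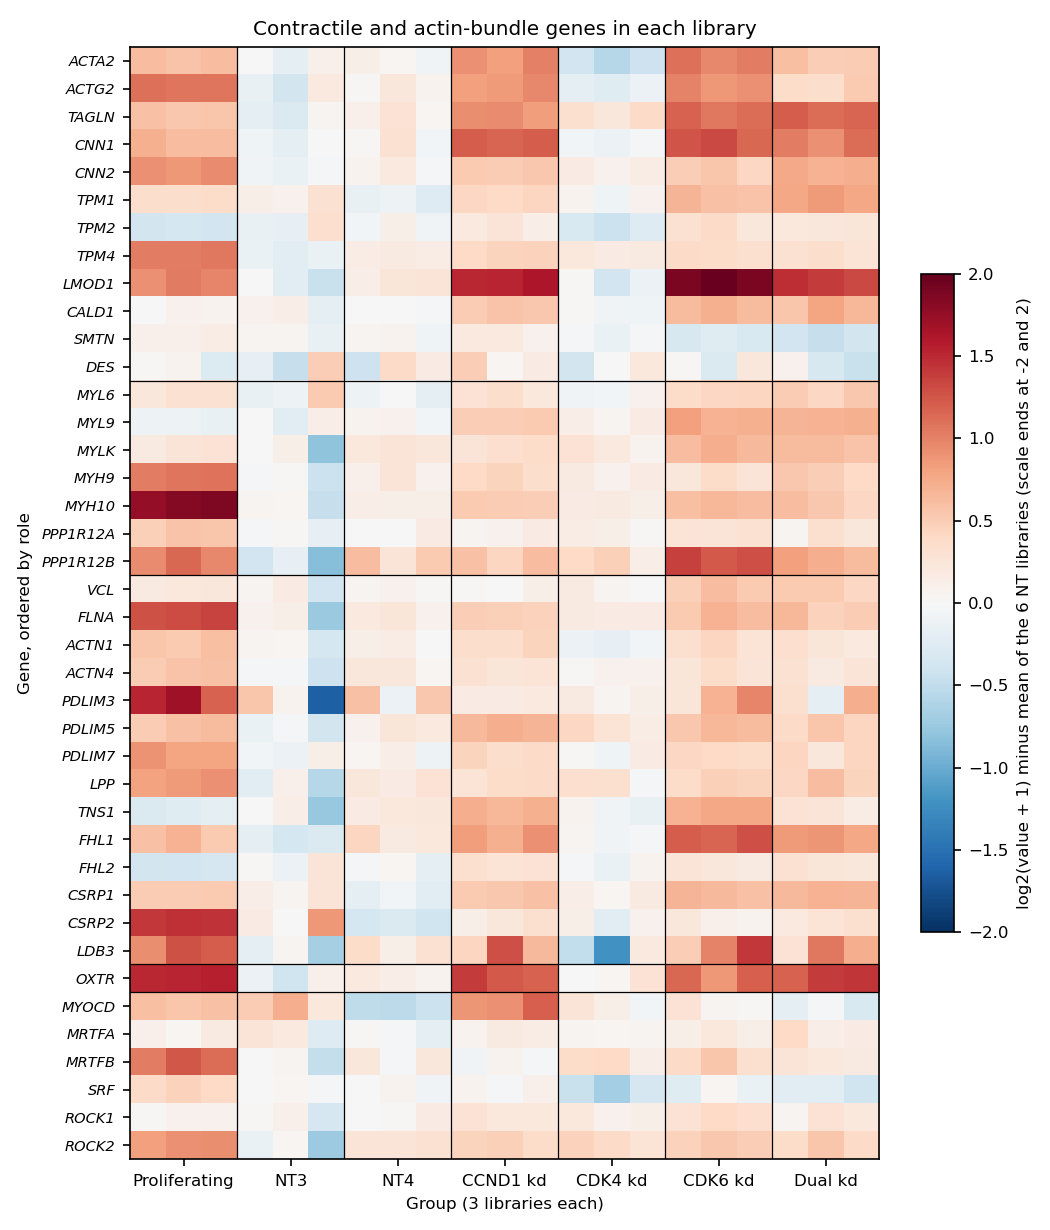
Each cell is the log2(value + 1) of 1 member in 1 library minus the mean of the 6 NT3 and NT4 libraries, with genes ordered by role and 3 libraries per group. The columns of CCND1, CDK6 and dual knockdown are mostly above 0 (red), CDK4 knockdown is close to the controls, and the third NT3 column is low for long genes such as FLNA and MYLK.

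Because SRF and its coactivators are members, the promoter windows of RefSeq (GRCh38.p14; 250 bases before to 50 after a gene's start) were searched on both strands for the CArG box. Windows were found for 37 of the 42 members, and TAGLN, DES, MYL9, MYH11 and MYOCD had none in the table used. Of the 93 windows of the members, 16 held the motif (17.2%), in 13 genes, against 1.19% of the 14022 windows of tested genes and 1.29% of all 35116 windows. The TEAD motif GGAATG was in 22.6% of the members' windows against 11.8% for tested genes, and TATAAA, which a CArG box can contain, in 15.1% against 6.68%. Members have 2.51 windows per gene and tested genes 1.49, so by gene the CArG share was 35.1% against 1.68%. A match is a description of these letters and not a shown binding site. Many smooth muscle genes are known to carry the motif, and SRF itself is a member. A share above that of all genes therefore comes with the choice of the list and is not a result about these libraries. The segments below are a choice from these matches, made because their genes behaved differently in the knockdowns. Matches in MYLK, ACTN1, LPP, SRF and ROCK2, and further ones in ACTG2 and FHL2, are not printed. ACTG2, FHL1 and LDB3 were among the larger rises in CCND1 and CDK6 knockdown, and LDB3 did not pass in dual knockdown. CNN2, TPM4 and FLNA rose in CCND1, CDK6 and dual knockdown while staying under the proliferating level. FHL2 was above that level in every knockdown, and SMTN fell in CDK6 and dual knockdown. This choice shows no link between the motif and the response. Each is 70 bases from the gene's own strand, 5′ to 3′, with the CArG box in capitals.
ACTG2, chr2:73892868-73892937, plus strand: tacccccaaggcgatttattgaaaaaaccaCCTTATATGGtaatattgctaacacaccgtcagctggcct
FHL1, chrX:136196891-136196960, plus strand: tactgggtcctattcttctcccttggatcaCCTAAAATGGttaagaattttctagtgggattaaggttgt
LDB3, chr10:86668424-86668493, plus strand: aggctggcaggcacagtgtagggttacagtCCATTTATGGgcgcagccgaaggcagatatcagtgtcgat
CNN2, chr19:1026489-1026558, plus strand: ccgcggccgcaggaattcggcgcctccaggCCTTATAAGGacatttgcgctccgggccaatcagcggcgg
TPM4, chr19:16067335-16067404, plus strand: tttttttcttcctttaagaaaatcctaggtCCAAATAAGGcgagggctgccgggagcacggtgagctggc
FLNA, chrX:154374689-154374758, minus strand: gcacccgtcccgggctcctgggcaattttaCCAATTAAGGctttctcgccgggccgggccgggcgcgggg
FHL2, chr2:105438575-105438644, minus strand: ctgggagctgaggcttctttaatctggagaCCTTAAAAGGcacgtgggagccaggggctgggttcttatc
SMTN, chr22:31084922-31084991, plus strand: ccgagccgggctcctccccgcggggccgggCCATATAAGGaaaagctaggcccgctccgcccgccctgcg

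In the GENCODE annotation of the same build, the segments of CNN2, FLNA and FHL2 lie upstream of their gene, and those of ACTG2, FHL1, LDB3, TPM4 and SMTN lie in an intron of a longer transcript of the gene, upstream of a RefSeq start. The motif began 44 bases before that start in SMTN and 173 before it in TPM4, the ends of the range among those printed. The rise in CDK6 knockdown was found with and without a match: 11 of the 13 rose and 1 fell (median 0.49), and 20 of the 23 tested members with windows but no match rose (median 0.61). In dual knockdown the medians were 0.43 and 0.48. In CCND1 knockdown 12 of the 13 with a match and 16 of the 23 without one rose (medians 0.43 and 0.40), and in senescent controls 10 and 18 fell (medians -0.85 and -0.58). The difference between members with and without a match was not tested. ACTA2, CNN1 and LMOD1 had no match in these windows, which says only that the letters are not within them.

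Among the 12 genes counted as thin-filament, DES included, 10 rose in each of CCND1, CDK6 and dual knockdown, and 8 fell in senescent controls. ACTA2, the alpha smooth muscle actin, stood at 4868, 4725 and 4896 in proliferating cells, 3190.1, 2782 and 3425 in NT3 and 3440.0, 3273 and 3021 in NT4. For ACTA2, CCND1 knockdown gave 6018, 5644 and 6429, CDK4 knockdown 2441, 2146 and 2384, CDK6 knockdown 6857, 6204 and 6494, and dual knockdown 4824, 4475 and 4524. The 3 CDK4 libraries lay below all 6 controls and the other 9 knockdown libraries above them. By limma on log2(value + 1), ACTA2 fell in senescent controls by 0.60 on the log2 scale (SE 0.06, adjusted p = 2.36e-08). It differed from the controls by 0.92 (SE 0.06, limma adjusted p = 1.33e-09) in CCND1, -0.45 (SE 0.06, limma adjusted p = 3.27e-05) in CDK4, 1.03 (SE 0.06, limma adjusted p = 5.53e-11) in CDK6 and 0.53 (SE 0.06, limma adjusted p = 5.8e-07) in dual knockdown. ACTA2 and TPM2 were the members that fell with 1 kinase knocked down and rose with the other, and for both the dual level lay between them. ACTA2 spans chr10:88935074-88991339 on the minus strand and overlaps exons of FAS and ACTA2-AS1 on the other strand; the strand setting of the counting is not given in the sources used here, so reads of such partners cannot be told apart.

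ACTG2, the gamma smooth muscle actin, had the knockdowns in the same order with a higher proliferating level, at 8530.0, 8395 and 8359 in proliferating cells, 3606, 3084 and 4574 in NT3 and 4074, 4655 and 4212 in NT4. For ACTG2, CCND1 knockdown gave 7087, 7232 and 7767, CDK4 knockdown 3491, 3367 and 3695, CDK6 knockdown 7929.9, 7262 and 7561, and dual knockdown 5164, 5122 and 5724. All 3 proliferating libraries exceeded all 18 irradiated libraries, and the CCND1 and CDK6 libraries came closest. It rose by 0.88 (SE 0.08, limma adjusted p = 7.12e-08) in CCND1, 0.92 (SE 0.08, limma adjusted p = 1.13e-08) in CDK6 and 0.42 (SE 0.08, limma adjusted p = 0.000262) in dual knockdown, and CDK4 knockdown did not pass (-0.18, 95% interval -0.35 to -0.02). Actin genes are near-identical over long stretches, and how shared reads were assigned is not given in the sources used here, so both actin values are uncertain to that extent.

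TAGLN (transgelin, an actin-crosslinking protein of smooth muscle) stood at 20539, 19807 and 19980.5 in proliferating cells, 11978, 11152 and 14133 in NT3 and 14675, 16556 and 13925 in NT4. For TAGLN, CCND1 knockdown gave 26015, 26372 and 24308, CDK4 knockdown 17034, 15871 and 17823, CDK6 knockdown 30803, 28392 and 29602, and dual knockdown 31456, 29656 and 30596. Every library of the 4 knockdowns except 1 of CDK4 lay above the control range, and TAGLN rose in all 4: the log2 differences from the controls were 0.91 (SE 0.07, limma adjusted p = 3.26e-09), 0.31 (SE 0.07, limma adjusted p = 0.00242), 1.12 (SE 0.07, limma adjusted p = 3.5e-11) and 1.17 (SE 0.07, limma adjusted p = 9.76e-12) in the same order. The CDK4 rise was not past the threshold against NT4 alone (0.17). CNN1 (calponin 1, which inhibits the myosin ATPase on thin filaments) stood at 2045, 1931 and 1927 in proliferating cells, 1180.3, 1102 and 1254 in NT3 and 1274, 1541 and 1213 in NT4. For CNN1, CCND1 knockdown gave 2905, 2825 and 2895, CDK4 knockdown 1210.3, 1162 and 1225, CDK6 knockdown 2995, 3122 and 2778, and dual knockdown 2557, 2359.7 and 2717. CCND1, CDK6 and dual knockdown libraries exceeded all control and all proliferating libraries, whereas CDK4 libraries lay within the control range. The differences were 1.20 (SE 0.07, limma adjusted p = 5.23e-11), 1.24 (SE 0.07, limma adjusted p = 7.06e-12) and 1.02 (SE 0.07, limma adjusted p = 6.33e-11), and -0.06 (SE 0.07) in CDK4 knockdown, with a 95% interval of -0.20 to 0.07.

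The member with the largest rise in each of CCND1, CDK6 and dual knockdown was LMOD1 (leiomodin 1, which nucleates actin filaments in smooth muscle; chr1:201896456-201946548, minus strand). LMOD1 was at 1386, 1519 and 1455 in proliferating cells, 745, 638 and 541 in NT3 and 812, 877 and 887 in NT4. For LMOD1, CCND1 knockdown gave 2112, 2134 and 2270.1, CDK4 knockdown 748, 569 and 680.2, CDK6 knockdown 2736, 2917 and 2727, and dual knockdown 2058, 1941 and 1854. No library of CCND1, CDK6 or dual knockdown overlapped with the controls or with proliferating cells, and CDK4 libraries were within the control range. Its log2 difference was -0.97 (SE 0.08, limma adjusted p = 7.53e-10) in senescent controls against proliferating cells, then 1.55 (SE 0.08, limma adjusted p = 4.37e-11) in CCND1, 1.92 (SE 0.08, limma adjusted p = 6.34e-13) in CDK6 and 1.40 (SE 0.08, limma adjusted p = 1.57e-11) in dual knockdown against the controls. A long non-coding RNA overlaps its exons on the other strand.

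**Figure D3:**
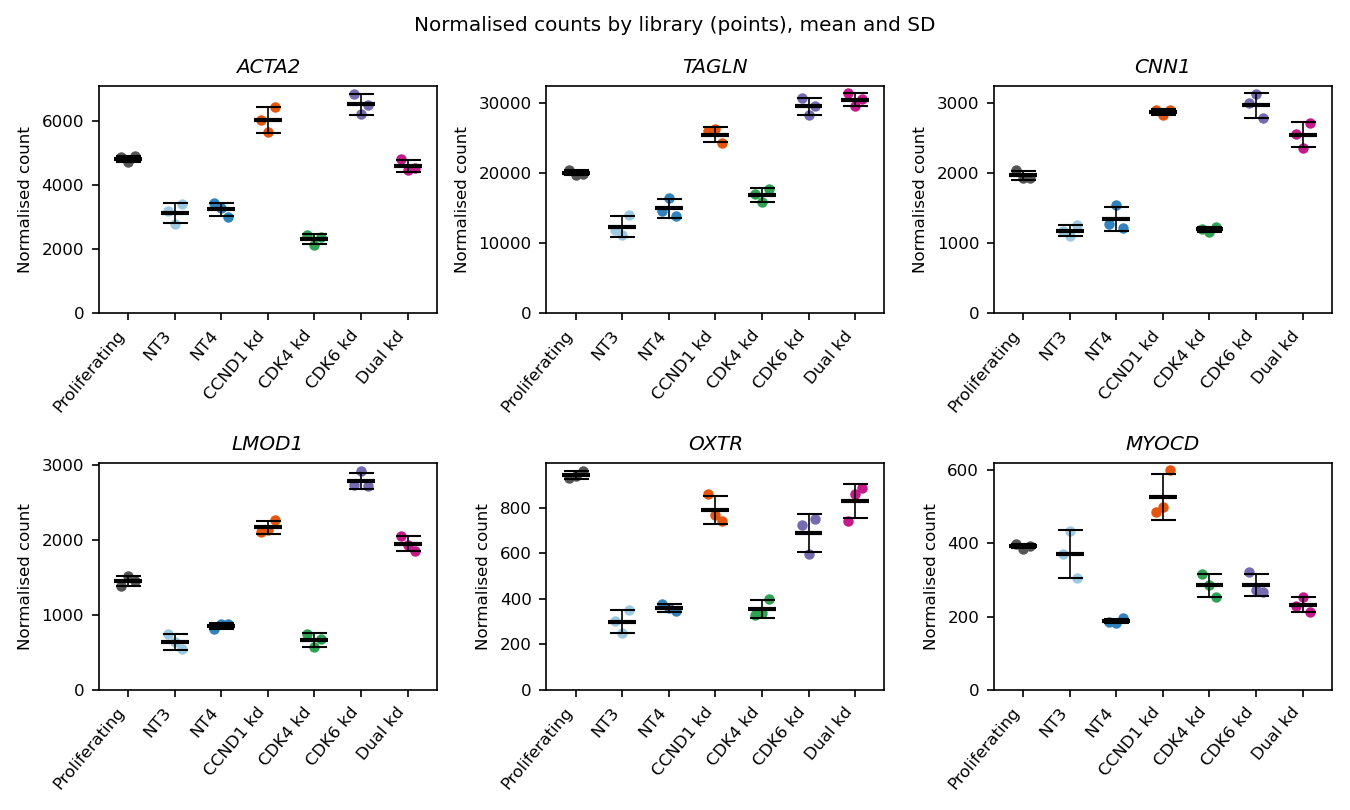
Normalised read counts of 6 members in every library (points), with the group mean and SD as bars, on linear axes that start at 0. ACTA2, TAGLN, CNN1 and LMOD1 are higher in CCND1, CDK6 and dual knockdown than in NT3 and NT4, while MYOCD is highest in CCND1 knockdown and lowest in NT4.

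The tropomyosins, which wrap actin filaments, did not move as one. TPM1 fell in senescent controls (-0.35, SE 0.05) and rose in CCND1 (0.41), CDK6 (0.61) and dual knockdown (0.80). TPM2 stood at 21856, 22194 and 21566 in proliferating cells, 25534, 25037 and 35427 in NT3 and 27293, 30431 and 26709 in NT4. For TPM2, CCND1 knockdown gave 32189, 33839.6 and 31012, CDK4 knockdown 22738, 20939.8 and 23623, CDK6 knockdown 34964, 36663 and 33150.3, and dual knockdown 32774, 32857 and 33425. TPM2 was higher in senescent controls than in proliferating cells (0.37, SE 0.08, limma adjusted p = 0.0004), one of 2 members to rise there, and it fell in CDK4 knockdown (-0.33, SE 0.08, limma adjusted p = 0.00688), which did not pass without CDK4 replicate 2 (-0.28). Its rise in dual knockdown (0.23, SE 0.08) was lost in 12 of 21 alternatives. TPM4 fell in senescent controls by 1.03 on the log2 scale (SE 0.04) and rose in all 4 knockdowns by 0.19 to 0.43, with the CDK4 rise not past the threshold against NT4 alone (0.03) and the dual rise lost under quantile normalization (0.06). Tropomyosin genes share exon sequence, so their values are uncertain in the same way as those of the actins.

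CALD1 (caldesmon) did not pass between senescent controls and proliferating cells (-0.06, 95% interval -0.18 to 0.07) and rose in CCND1 (0.54, SE 0.06), CDK6 (0.65, SE 0.06) and dual knockdown (0.67, SE 0.06). CNN2, the more widely expressed calponin, fell in senescent controls (-0.91, SE 0.05) and rose in CCND1 (0.53), CDK6 (0.49) and dual knockdown (0.72). SMTN (smoothelin, a filament protein of contractile smooth muscle) was the exception. SMTN was at 2672, 2669 and 2760.1 in proliferating cells, 2575, 2573 and 2243 in NT3 and 2592, 2622 and 2346 in NT4. For SMTN, CCND1 knockdown gave 2836, 2834 and 2643, CDK4 knockdown 2427, 2275 and 2431, CDK6 knockdown 1995, 2100.2 and 2008, and dual knockdown 1914, 1801 and 1920.0. All 6 libraries with CDK6 siRNA lay below all 6 controls, and SMTN fell by 0.29 (SE 0.05, limma adjusted p = 0.000135) in CDK6 and by 0.41 (SE 0.05, adjusted p = 1.96e-06) in dual knockdown. Its small rise in CCND1 knockdown (0.15) was lost in 6 of 21 alternatives. DES (desmin, the intermediate filament of muscle) held 37 to 74 reads per library and passed in no comparison.

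All 7 tested genes of myosin and its regulation rose under CDK6 and dual knockdown, 6 rose in CCND1 knockdown and none passed in CDK4 knockdown. MYL9, the regulatory light chain of smooth muscle myosin, stood at 14283, 14317 and 13867 in proliferating cells, 15246, 13279 and 16873 in NT3 and 16149.5, 16341 and 14839 in NT4. For MYL9, CCND1 knockdown gave 21756, 21715 and 22176, CDK4 knockdown 16818, 15939 and 17298, CDK6 knockdown 27162, 25029 and 25259, and dual knockdown 24789.7, 24979 and 25347. The CCND1, CDK6 and dual libraries exceeded every control and every proliferating library. MYL9 differed by 0.51 (SE 0.06, limma adjusted p = 1.48e-06), 0.74 (SE 0.06, limma adjusted p = 2.43e-09) and 0.70 (SE 0.06, limma adjusted p = 3.61e-09) from the controls in these 3 groups, and did not pass in senescent controls (0.12, 95% interval 0.00 to 0.24). MYLK, the kinase that phosphorylates that light chain, was at 19072, 20069.6 and 20558 in proliferating cells, 16748, 18238 and 9566 in NT3 and 19446, 19990.1 and 19527 in NT4. For MYLK, CCND1 knockdown gave 20096, 21068 and 21684, CDK4 knockdown 20591, 19214 and 17671, CDK6 knockdown 25593, 27752 and 26330.2, and dual knockdown 26089, 25918 and 24784. Only CDK6 and dual libraries were above all other libraries, and the low NT3 value is that of replicate 3. MYLK rose by 0.66 (SE 0.12, limma adjusted p = 0.000147) in CDK6 and 0.61 (SE 0.12, limma adjusted p = 0.000318) in dual knockdown, calls that no alternative ended. Its call in CCND1 knockdown (0.32, SE 0.12) was lost in 11 of 21 alternatives and was 0.18 without NT3 replicate 3.

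The largest fall of any member in senescent controls was that of a nonmuscle myosin heavy chain. MYH10 (nonmuscle myosin IIB) stood at 5676, 5956 and 6101 in proliferating cells, 1737, 1719 and 1212 in NT3 and 1845, 1815 and 1821 in NT4. For MYH10, CCND1 knockdown gave 2399, 2393 and 2358, CDK4 knockdown 1884, 1900.0 and 1809.8, CDK6 knockdown 2537, 2645 and 2573, and dual knockdown 2558, 2439 and 2238. Every irradiated library was far below the proliferating range, with a log2 difference of -1.82 (SE 0.08, limma adjusted p = 9.02e-15) in the controls. MYH10 rose in CCND1 (0.51, SE 0.08), CDK6 (0.63, SE 0.08) and dual knockdown (0.52, SE 0.08), and its highest knockdown library reached 2645 against a lowest proliferating value of 5676. MYH9 (nonmuscle myosin IIA) fell by 1.06 in senescent controls (SE 0.08, limma adjusted p = 5.12e-11) and rose by 0.40, 0.28 and 0.48 in CCND1, CDK6 and dual knockdown. Against NT4 alone the MYH9 rise was not past the threshold in CCND1 (0.24) or CDK6 knockdown (0.13). MYL6, the essential light chain, rose in CDK6 (0.40, SE 0.10) and dual knockdown (0.49, SE 0.10), and its calls in senescent controls (-0.28) and CCND1 knockdown (0.28) were lost in 4 of 20 and 10 of 21 alternatives. MYH11 had 8 reads in all 21 libraries together and 0 in 14 of them, so the defining heavy chain of smooth muscle was not detectable at this depth.

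PPP1R12A and PPP1R12B encode targeting subunits of the phosphatase that dephosphorylates the light chain. PPP1R12B was at 533, 616 and 539 in proliferating cells, 212, 248 and 154 in NT3 and 427, 332 and 399 in NT4. For PPP1R12B, CCND1 knockdown gave 417, 372 and 428, CDK4 knockdown 365, 387 and 305, CDK6 knockdown 721, 650.4 and 682, and dual knockdown 493, 462 and 431. CDK6 libraries were above all others, and the 2 controls did not overlap with each other. Relative to their mean, PPP1R12B rose by 1.30 (SE 0.11, limma adjusted p = 1.33e-08) in CDK6 knockdown, and by 0.54 (SE 0.11) in CCND1 and 0.73 (SE 0.11) in dual knockdown. Against NT4 alone the CDK6 rise was 0.83 and passed, and the last 2 were 0.08 and 0.26 and did not. PPP1R12A fell in senescent controls (-0.53, SE 0.06) and rose in CDK6 (0.28, SE 0.06) and dual knockdown (0.20, SE 0.06), the last lost in 4 of 21 alternatives.

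Of the 14 genes of adhesion and crosslinking, 12 fell and 1 rose in senescent controls, and 11 rose in CCND1, 12 in CDK6 and 10 in dual knockdown with none lower. FLNA (filamin A, which crosslinks actin and links it to membrane receptors) stood at 92169, 93504 and 96931 in proliferating cells, 40503, 41325 and 22748 in NT3 and 43594, 45153 and 40464 in NT4. For FLNA, CCND1 knockdown gave 53226, 53221 and 52301, CDK4 knockdown 42908, 42632 and 42702, CDK6 knockdown 54939, 61835 and 58522, and dual knockdown 60390.4, 52268 and 54006. The proliferating libraries lay far above all others, and CCND1, CDK6 and dual libraries lay above all controls. FLNA fell by 1.31 in senescent controls (SE 0.12, limma adjusted p = 2.77e-09) and rose by 0.62 (SE 0.12, limma adjusted p = 0.000291) in CDK6 and 0.54 (SE 0.12, limma adjusted p = 0.000911) in dual knockdown. Its rise in CCND1 knockdown (0.48) was 0.30 against NT4 alone and not past the threshold. VCL (vinculin, which couples integrin adhesions to actin) rose in CDK6 (0.54, SE 0.08) and dual knockdown (0.48, SE 0.08) and did not pass in CCND1 knockdown (0.05, 95% interval -0.11 to 0.22), and the fall of VCL in senescent controls (-0.20) was lost in 6 of 20 alternatives and was -0.12 without NT3 replicate 3. The alpha-actinins ACTN1 (-0.56) and ACTN4 (-0.55) fell in senescent controls and rose by 0.24 to 0.38 in CCND1, CDK6 and dual knockdown, and for ACTN4 none of the 3 rises passed against NT4 alone (0.11, 0.12 and 0.08). The dual rise of ACTN1 did not pass there either (0.17).

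The LIM-domain proteins FHL1 and FHL2, adaptors at actin filaments, split in senescence. FHL1 stood at 1663, 1794 and 1595 in proliferating cells, 980.0, 866 and 909 in NT3 and 1488, 1248 and 1282 in NT4. For FHL1, CCND1 knockdown gave 1973, 1806 and 2088, CDK4 knockdown 1149, 1052 and 1088, CDK6 knockdown 2565, 2468 and 2696, and dual knockdown 2007, 2039.7 and 1885. CDK6 libraries were the highest, CDK4 libraries stayed within the control range, and NT3 and NT4 did not overlap. FHL1 fell in senescent controls (-0.60, SE 0.06, limma adjusted p = 2.47e-08) and rose by 0.82 (SE 0.06, limma adjusted p = 9.07e-09) in CCND1, 1.22 (SE 0.06, limma adjusted p = 6.5e-12) in CDK6 and 0.84 (SE 0.06, limma adjusted p = 7.99e-10) in dual knockdown. The fall of FHL1 was -0.87 with NT3 and -0.33 with NT4 as the only control. FHL2 was the other member to rise in senescent controls (0.37, SE 0.06, limma adjusted p = 2.84e-05), and it rose further by 0.22 to 0.30 in CCND1, CDK6 and dual knockdown. With NT3 as the only control the CDK6 rise of FHL2 did not pass (0.17).

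TNS1 (tensin 1, a link between integrins and actin in fibrillar adhesions) did not pass in senescent controls and was at 2952, 3049 and 3175 in proliferating cells, 3615, 3953 and 2129.8 in NT3 and 4047, 4146 and 4215 in NT4. For TNS1, CCND1 knockdown gave 5955, 5669.6 and 5901, CDK4 knockdown 3759, 3415 and 3258, CDK6 knockdown 5817, 6111 and 6149.5, and dual knockdown 4408, 4292 and 3971. CCND1 and CDK6 libraries exceeded all others, and dual libraries overlapped with NT4. TNS1 rose by 0.70 (SE 0.12, limma adjusted p = 9.35e-05) in CCND1 and 0.75 (SE 0.12, limma adjusted p = 2.33e-05) in CDK6 knockdown, and did not pass in dual knockdown (0.23, 95% interval -0.01 to 0.47). The PDZ-LIM proteins PDLIM5 and PDLIM7, which tie signalling proteins to actin bundles, rose in CCND1 (0.69 and 0.39), CDK6 (0.61 and 0.39) and dual knockdown (0.45 and 0.37). LPP, a zyxin relative of smooth muscle adhesions, rose by 0.35, 0.43 and 0.49, and in none of the 3 against NT4 alone (0.12, 0.20 and 0.26). CSRP1, a LIM protein of smooth muscle, rose by 0.55, 0.64 and 0.67 and was kept in every alternative.

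CSRP2, the close relative of CSRP1, behaved otherwise. CSRP2 was at 1294, 1333 and 1319 in proliferating cells, 543, 483 and 881 in NT3 and 377, 397 and 367 in NT4. For CSRP2, CCND1 knockdown gave 526, 565 and 603, CDK4 knockdown 526, 416 and 515, CDK6 knockdown 565, 519 and 508, and dual knockdown 555, 586 and 601. No irradiated library reached the proliferating range, the third NT3 library was the highest of the irradiated ones, and knockdowns overlapped with NT3. CSRP2 fell by 1.44 in senescent controls (SE 0.12, limma adjusted p = 6.75e-10) and passed in no knockdown against the controls. PDLIM3, at 9 to 121 reads per library, fell in senescent controls (-1.47, SE 0.32) and also passed in no knockdown. LDB3 (a Z-line protein of striated muscle) held 7 to 51 reads per library. It fell in senescent controls (-1.14, SE 0.29, limma adjusted p = 0.00131) and rose in CDK6 knockdown (0.96, SE 0.29, limma adjusted p = 0.00979), which did not pass against NT4 alone (0.70) or without CDK6 replicate 3 (0.74). Its call in CCND1 knockdown (0.79) was lost in 9 of 20 alternatives, among them the fit without NT3 replicate 3.

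**Figure D4:**
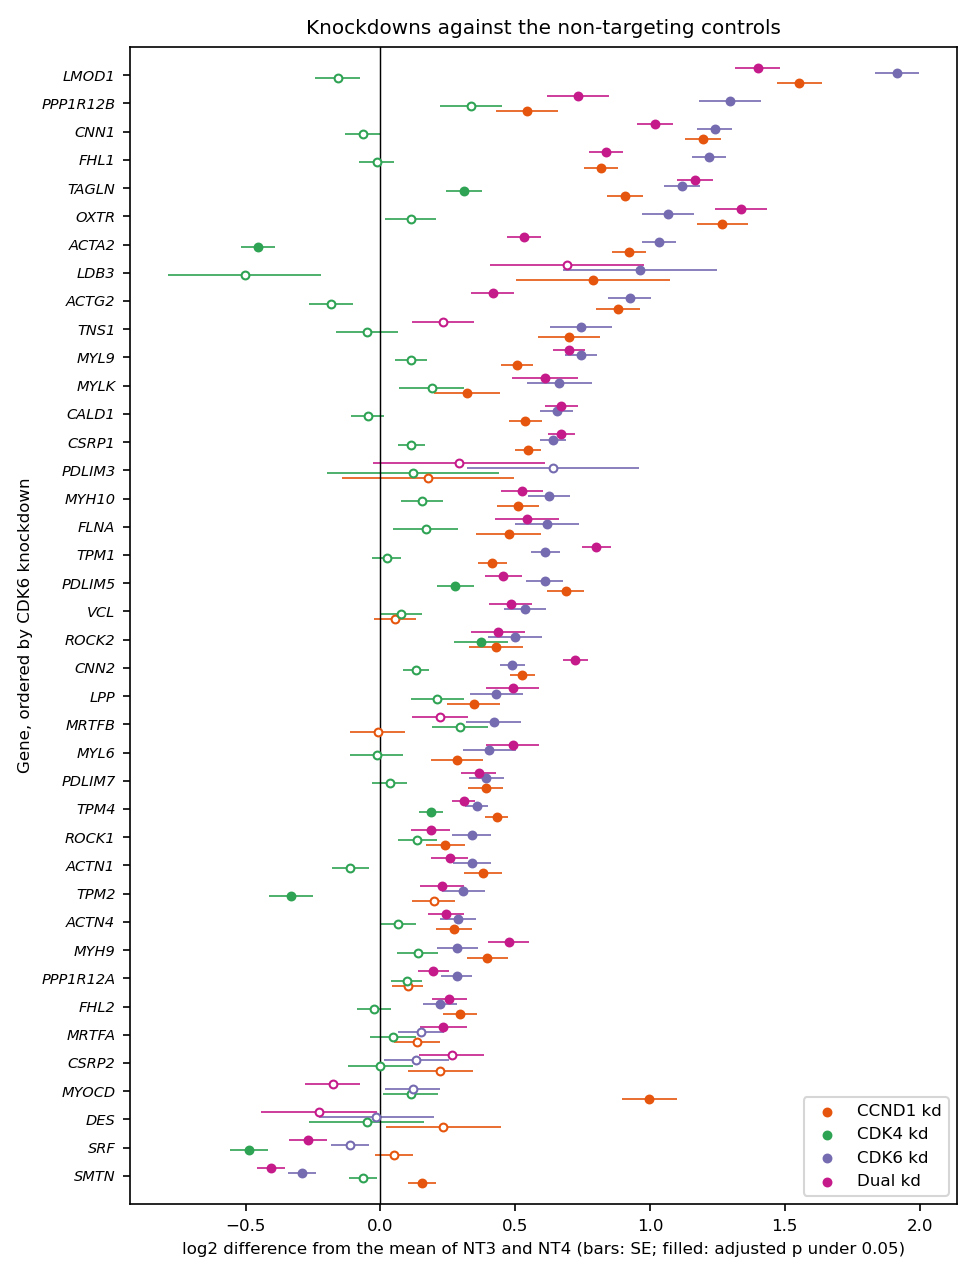
Log2 differences of the 40 members from the mean of NT3 and NT4 in the 4 knockdowns, ordered by CDK6 knockdown, with bars of 1 SE and filled points past a limma adjusted p of 0.05. Within CDK6 knockdown LMOD1 leads at 1.92 and SMTN is lowest at -0.29. The CDK4 points lie between -0.50 and 0.37 with 7 filled.

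OXTR, the oxytocin receptor that drives contraction of uterine smooth muscle (chr3:8750381-8769628, minus strand), was at 931, 938 and 962 in proliferating cells, 302, 248 and 349.5 in NT3 and 376, 359 and 344 in NT4. For OXTR, CCND1 knockdown gave 859, 769 and 742, CDK4 knockdown 329, 336 and 398, CDK6 knockdown 724, 594 and 749, and dual knockdown 743, 862 and 884. Proliferating libraries were the highest, CCND1, CDK6 and dual libraries were all above the controls, and CDK4 libraries overlapped with them. OXTR fell by 1.53 in senescent controls (SE 0.10, limma adjusted p = 5.79e-12) and rose by 1.27 (SE 0.10, limma adjusted p = 6.3e-09) in CCND1, 1.07 (SE 0.10, limma adjusted p = 1.77e-08) in CDK6 and 1.34 (SE 0.10, limma adjusted p = 3.69e-10) in dual knockdown. KCNMB1, the channel subunit that damps contraction, held 9 reads over all libraries and 0 in 13 of them.

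For the coactivator MYOCD and for SRF the groups were in another order than for ACTA2 or TAGLN. MYOCD (chr17:12665890-12768949, plus strand) codes for myocardin, a coactivator best known from smooth and cardiac muscle. Its level was 397, 385 and 393 in proliferating cells, 372, 434 and 305 in NT3 and 185, 183 and 195 in NT4. For MYOCD, CCND1 knockdown gave 484, 497 and 599, CDK4 knockdown 315, 285 and 253, CDK6 knockdown 321, 271 and 266, and dual knockdown 229.6, 254 and 213. NT4 was the lowest group, below all NT3 libraries, and CCND1 libraries were above all others. MYOCD rose in CCND1 knockdown (0.997, SE 0.10, limma adjusted p = 3e-07) and did not pass in CDK6 (0.12, 95% interval -0.09 to 0.33) or dual knockdown (-0.18, -0.39 to 0.04), where ACTA2, TAGLN, CNN1 and LMOD1 rose. Its CCND1 rise was 0.52 with NT3 and 1.48 with NT4 as the only control, and passed with either. In CDK6 and dual knockdown the direction depended on the control, since all 6 libraries lay above NT4, while the dual libraries lay below all of NT3 and the CDK6 libraries overlapped with NT3. Its fall in senescent controls (-0.58) was -0.10 with NT3 as the only control and did not pass. SRF was at 1499, 1575 and 1507 in proliferating cells, 1136, 1169 and 1124 in NT3 and 1137, 1204 and 1093 in NT4. For SRF, CCND1 knockdown gave 1194, 1129 and 1227, CDK4 knockdown 839, 711 and 906, CDK6 knockdown 962, 1175 and 1043, and dual knockdown 991, 987 and 871. All irradiated libraries were below the proliferating ones, and the 3 CDK4 libraries and 1 dual library (871) were lowest, while the other dual libraries overlapped with CDK6 knockdown. SRF fell in senescent controls (-0.42, SE 0.07), in CDK4 (-0.49, SE 0.07, limma adjusted p = 5.88e-05) and in dual knockdown (-0.27, SE 0.07, limma adjusted p = 0.00398), and did not pass in CCND1 (0.05) or CDK6 knockdown (-0.11).

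MRTFA, the actin-sensing coactivator of SRF, passed among the knockdowns in dual knockdown only (0.23, SE 0.09), a call lost in 4 of 21 alternatives, with 0.15 without NT3 replicate 3. MRTFB, its relative, fell by 1.12 in senescent controls (SE 0.10, limma adjusted p = 2.97e-09) and rose in CDK6 knockdown (0.42, SE 0.10), which was 0.28 and not past the threshold against NT4 alone. The protein kinase gene ROCK2 fell in senescent controls (-0.89, SE 0.10) and rose in all 4 knockdowns by 0.37 to 0.50, and against NT4 alone none of the 4 passed (0.10 to 0.23). ROCK1 did not pass in senescent controls (-0.06) and rose in CDK6 knockdown (0.34, SE 0.07), while its calls in CCND1 (0.24) and dual knockdown (0.19) were lost in 3 and 10 of 21 alternatives, the dual value being 0.12 without NT3 replicate 3.

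The knockdowns were then set against each other, with no control library in the difference. CDK6 knockdown was higher than CDK4 knockdown at 29 of the 40 members and lower at 1, SMTN (-0.22), with a median of 0.45, where 34.8% of all tested genes passed, 17.5% higher and 17.3% lower. At 34 members the 3 CDK6 libraries were all above the 3 CDK4 libraries, and at 1 all below, against 25.6% and 26.1% of all tested genes in these directions. The differences were largest in LMOD1 (2.08, SE 0.10), ACTA2 (1.49, SE 0.07), LDB3 (1.47, SE 0.33), CNN1 (1.30, SE 0.08), FHL1 (1.23, SE 0.07) and ACTG2 (1.11, SE 0.09). By role, 10 of 12 thin-filament, 6 of 7 myosin and 11 of 14 adhesion genes were higher, and 1 of the 6 genes of transcription factors, coactivators and kinases (SRF, 0.37, SE 0.08). Of the 30 calls, 24 were kept in every alternative run for them, which were 15 for LDB3 and 16 for the others.

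CCND1 and CDK6 knockdown differed at 9 members, 2 higher and 7 lower in CCND1 knockdown, beside 12.2% of all tested genes (6.78% higher and 5.43% lower). MYOCD (0.88, SE 0.12, limma adjusted p = 2.62e-05) and SMTN (0.45, SE 0.06, limma adjusted p = 2.86e-05) were higher in CCND1 knockdown. PPP1R12B (-0.75, SE 0.13, limma adjusted p = 0.000523), VCL (-0.48, SE 0.09, limma adjusted p = 0.00103) and FHL1 (-0.40, SE 0.07, limma adjusted p = 0.000801) were lower, and these 5 held under each of 16 alternatives. LMOD1 (-0.36), MRTFB (-0.43), MYL9 (-0.24) and TPM1 (-0.20) were lower too, but lost the call without single libraries of either group. For ACTA2 the difference did not pass and had a 95% interval of -0.26 to 0.04, and for CNN1 of -0.20 to 0.11.

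With CDK4 siRNA added to CDK6 siRNA, ACTA2 and 5 other members were lower than with CDK6 siRNA alone. Dual differed from CDK6 knockdown at 8 members, 2 higher and 6 lower, beside 13.0% of all tested genes (6.05% higher and 6.94% lower). ACTA2 (-0.50, SE 0.07, limma adjusted p = 6.03e-05), ACTG2 (-0.51, SE 0.09, limma adjusted p = 0.000702), LMOD1 (-0.52, SE 0.10, limma adjusted p = 0.000712), FHL1 (-0.38, SE 0.07, limma adjusted p = 0.00108), PPP1R12B (-0.57, SE 0.13, limma adjusted p = 0.00593) and TNS1 (-0.51, SE 0.13, limma adjusted p = 0.0123) were lower in dual knockdown. CNN2 (0.23, SE 0.05, limma adjusted p = 0.00556) and TPM1 (0.19, SE 0.06, limma adjusted p = 0.0491) were higher, and the TPM1 and TNS1 calls were lost without single libraries (TNS1 without dual replicate 3, -0.47). TAGLN, MYL9 and CALD1 did not pass, with 95% intervals of -0.11 to 0.21, -0.18 to 0.10 and -0.13 to 0.16. Residual CDK6 was 16.4% of the control mean in CDK6 knockdown and 20.6% of it in the dual knockdown. Whether 5 nM was the dose of each siRNA or of the sum in dual knockdown is not given in the sources used here.

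Measured as the departure of dual knockdown from the sum of both single effects on the log2 scale, 4 members passed and all were below the sum, where 6.35% of all tested genes passed, 2.63% above the sum and 3.71% below it. ACTA2 was not among them (-0.05, 95% interval -0.25 to 0.16). The 4 were PPP1R12B (-0.90, SE 0.18, limma adjusted p = 0.00255), PDLIM5 (-0.43, SE 0.10, limma adjusted p = 0.0153), FHL1 (-0.37, SE 0.10, limma adjusted p = 0.0256) and TPM4 (-0.23, SE 0.07, limma adjusted p = 0.0347). This count rested on the controls and on single libraries: it was 13 without NT3 replicate 3, 9 without NT3 replicate 2, 1 without CDK4 replicate 1 and 2 without CDK6 replicate 1 or 3 or dual replicate 1 or 3, and 13 or 1 with NT3 or NT4 as the only control.

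The 2 non-targeting siRNAs did not give the same levels. NT4 was above NT3 at 14 members and below it at 4 (median 0.18), where 27.8% of all tested genes passed, 14.7% higher and 13.1% lower. PPP1R12B (0.93, SE 0.13, limma adjusted p = 1.98e-05), ROCK2 (0.55, SE 0.12), FHL1 (0.54, SE 0.07), LPP (0.45, SE 0.11), MYLK (0.46, SE 0.14) and LMOD1 (0.43, SE 0.10) were higher in NT4. MYOCD (-0.96, SE 0.12, limma adjusted p = 3.22e-06), CSRP2 (-0.69, SE 0.14), TPM1 (-0.34, SE 0.06) and CSRP1 (-0.30, SE 0.06) were lower. A fit of these 6 libraries alone left 3 calls, PPP1R12B, FHL1 and MYOCD. Without NT3 replicate 3, the library low in genes with long annotated exons, MYLK was 0.17, MYH9 0.16, ACTN4 0.20, LPP 0.28, ROCK2 0.32 and CSRP2 -0.43 and all passed, while MYH10 (0.08) and TNS1 (0.13) did not. Other calls held but moved by over 1.5 times with the control. Against NT4 alone these included PPP1R12B in senescent controls (-0.55), TPM4 in CCND1 (0.27) and CDK6 (0.20), MYLK in CDK6 (0.43) and dual (0.38) and PDLIM5 in dual knockdown (0.28). Against NT3 alone they included TPM1 in senescent controls (-0.18) and in CCND1 knockdown (0.25). For ACTA2 the controls did not differ past the threshold (0.05, 95% interval -0.10 to 0.21). With either control alone, the count of members past the threshold was 30 (NT3) and 22 (NT4) in CCND1, 35 and 30 in CDK6, 35 and 27 in dual, and 17 and 8 in CDK4 knockdown, in the last with 13 higher and 4 lower against NT3 and 2 higher and 6 lower against NT4.

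Comparison of each knockdown with proliferating cells, added after the values were seen, showed which members lay above and which below the proliferating level. CCND1 knockdown was above proliferating cells at 11 members and below at 16 (63.8% of all tested genes passed, 31.3% above and 32.5% below), CDK6 knockdown at 14 and 17 (66.1%, 32.6% and 33.5%), and dual knockdown at 13 and 18 (65.6%, 32.7% and 32.9%). The members' shares past the threshold, 67.5%, 77.5% and 77.5% in that order, were a little above those of all tested genes. These counts are thus read as levels of single genes and not as a result about the set. CDK4 knockdown was above at 2 and below at 30 (62.7%, 29.5% and 33.2%), the same counts as in the senescent controls but not all the same genes. FHL2 was above in both, MYL9 only in CDK4 knockdown and TPM2 only in the controls. Among those below, SMTN passed only in CDK4 knockdown and VCL only in the controls. In CDK6 knockdown TNS1 (0.98, SE 0.13), LMOD1 (0.94, SE 0.10), MYL9 (0.87, SE 0.07), TPM2 (0.67, SE 0.09), FHL1 (0.61, SE 0.07), CALD1 (0.60, SE 0.07), CNN1 (0.59, SE 0.08), TAGLN (0.56, SE 0.08) and ACTA2 (0.43, SE 0.07, limma adjusted p = 2.28e-05) were above proliferating cells. CSRP2 (-1.31, SE 0.14), MYH10 (-1.19, SE 0.09), MYH9 (-0.78, SE 0.09), FLNA (-0.69, SE 0.14), MRTFB (-0.70, SE 0.12) and TPM4 (-0.68, SE 0.05) stayed below, and they were below in all 4 knockdowns. ACTG2 did not pass in CDK6 knockdown (-0.15, 95% interval -0.35 to 0.04), and OXTR stayed below (-0.46, SE 0.11). These 4 comparisons share the 3 proliferating libraries with each other and with the senescence comparison.

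The split depends on the scaling. Centring each library on its median shifted the all-gene median against proliferating cells by over 0.1 on the log2 scale, for example from -0.03 to 0.09 in senescent controls, and it gave 16 members above and 14 below in CCND1, 16 and 14 in CDK6, 16 and 15 in dual knockdown, and 4 and 28 in senescent controls. Under centring the members' median in senescent controls was -0.47, against 0.09 for all genes. Among comparisons within the irradiated groups centring moved no member count by more than 1.

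**Figure D5:**
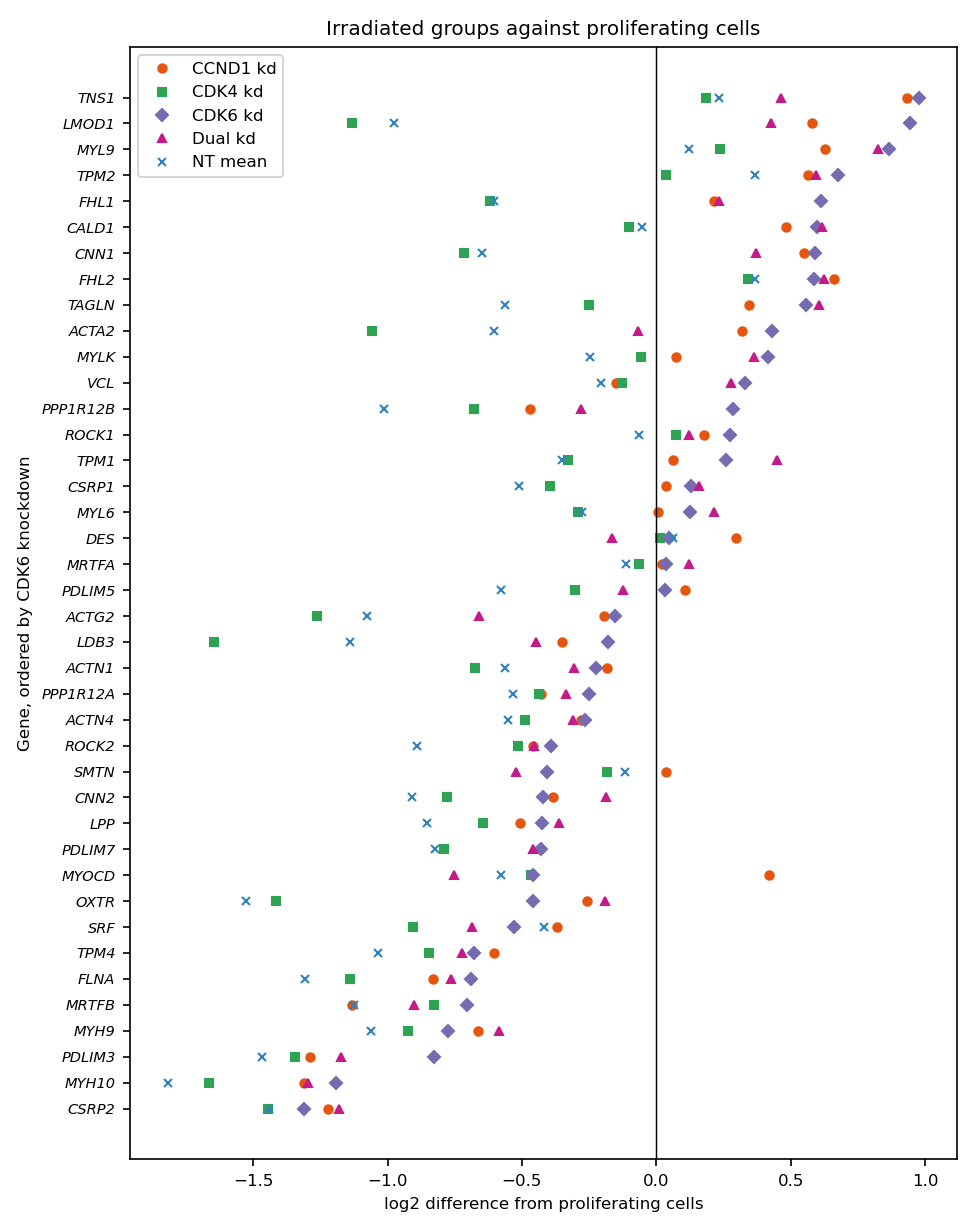
Log2 differences of the 40 members from proliferating cells in the 4 knockdowns and in the mean of NT3 and NT4, ordered by CDK6 knockdown. TNS1, LMOD1 and MYL9 lie to the right of 0 in CCND1, CDK6 and dual knockdown, while CSRP2, MYH10 and MYH9 lie to its left in every irradiated group.

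Related genes outside the members were read from 2 lists. Of 43 tested genes of focal adhesions and actin binding, 28 fell and 7 rose in senescent controls (median -0.36), and 25 rose and 1 fell in CCND1, 26 and 5 in CDK6, 28 and 6 in dual and 9 and 5 in CDK4 knockdown. In that order these were 81.4%, 60.5%, 72.1%, 79.1% and 32.6% of the list, beside 68.6%, 31.0%, 41.9%, 44.0% and 16.0% of all tested genes. Their medians in the 4 knockdowns were 0.25, 0.29, 0.29 and 0.05, lower than the members' 0.42, 0.52 and 0.47 in the first 3. In CDK6 knockdown SYNPO (synaptopodin, an actin-bundling protein, 0.83, SE 0.05), LIMS2 (0.72, SE 0.07) and PARVA (parvin alpha, a partner of integrin-linked kinase, 0.70, SE 0.05) rose most in this list, and PDLIM4 (-0.42, SE 0.08) fell most. In senescent controls TGFB1I1 (Hic-5, a paxillin relative, -1.15, SE 0.06) fell most and TMOD1 (tropomodulin 1, which caps filament ends, 2.19, SE 0.14) rose most. ACTC1, the cardiac actin, rose in senescent controls (1.99, SE 0.39) and fell in dual knockdown (-2.08, SE 0.39).

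Of 17 tested transcription factors with roles in smooth muscle genes, 3 rose and 5 fell in CDK6 and 2 rose and 8 fell in dual knockdown (medians -0.07 and -0.21), against 33 and 31 members higher. The shares of this list past the threshold were 47.1% and 58.8%, the first near the 41.9% of all tested genes in CDK6 and the second above the 44.0% in dual knockdown. Of the 17, 6 rose and 9 fell in senescent controls, 3 rose and 4 fell in CCND1, and 0 rose and 2 fell in CDK4 knockdown. These were 88.2%, 41.2% and 11.8% of the list, beside 68.6%, 31.0% and 16.0% of all tested genes. KLF4, which represses smooth muscle genes, rose in senescent controls (1.93, SE 0.10, limma adjusted p = 4.67e-13) and fell in CCND1 (-0.62, SE 0.10, limma adjusted p = 0.00012), CDK6 (-0.59, SE 0.10, limma adjusted p = 0.000105) and dual knockdown (-1.01, SE 0.10, limma adjusted p = 9.33e-08), and in CDK4 knockdown (-0.32, SE 0.10, limma adjusted p = 0.0408). TEAD1, a factor of the Hippo pathway, rose in CCND1 (0.32) and CDK6 knockdown (0.40), and GATA6 fell in CDK6 knockdown (-0.67). These values stand beside those of the members, and no link between them was tested.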

How the data were processed

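IMR90 RNA was read in 21 libraries of 7 groups. The deposited table holds normalised counts, treated here as a signal; per the labels and file headers no scaling is described, and the values are whole multiples of 1 step per library, as reads divided by a size factor are. It lists genes with Entrez IDs up to 140467. Per the submitters' processing notes, the tools were Trimmomatic 0.38.1, HISAT2 2.2.1, featureCounts 2.0.3, FastQC 0.74, MultiQC and DESeq2 2.11.40.8, with hg38; strand settings are not given in the sources used here. Dividing out the size factors gave whole reads (within 0.1 read) for 100% of values. Genes with a value of 10 or more in 3 or more libraries were tested (11579 of 16383). The main test was limma 3.58.1 (R 4.3.3) with a trend on log2(value + 1), 1 mean per group, all libraries in 1 fit and Benjamini-Hochberg adjustment over all tested genes within each comparison, at 0.05. A log2 difference on this scale understates the change of low genes. Controls are the mean of the NT3 and NT4 group means.

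Results were recomputed with pseudocounts of 0.1 and 10, without a filter or with a minimum mean of 100, and with median centring, quantile normalization, either control alone, only the groups compared, edgeR 4.0.16 and DESeq2 1.42.0 on the recovered reads, and each library left out. A block by header numbers and the comparisons of knockdowns with proliferating cells were added after seeing the data. The members and lists were chosen with earlier results of these data known. Core members were named throughout, other members where past the threshold with a log2 difference over 0.5 in any comparison, and the rest for completeness. From each other list at most the 3 highest and 3 lowest past the threshold were named; 1 of these lists is not reported here. Columns name a group and no replicate. The script was tested on simulated data.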

Additional observations from a re-analysis of the deposited data

Results flagged for a closer look

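The test of the dual knockdown against the sum of both single effects, an interaction term in limma, passed for 4 members, and each value is a log2 departure from that sum. PPP1R12B, a phosphatase targeting subunit, was at -0.90 (adjusted p = 0.00255), a departure of -0.43 and not past the threshold with NT4 as the only control. PDLIM5, a PDZ-LIM protein, was at -0.43 by limma (adjusted p = 0.0153). FHL1, a LIM protein, was at -0.37 by limma (adjusted p = 0.0256). TPM4, a tropomyosin, was at -0.23 by limma (adjusted p = 0.0347). The call was lost in 1 of 27 alternatives for PPP1R12B, 4 of 27 for PDLIM5, 6 of 27 for FHL1 and 13 of 27 for TPM4. In each of the 4 the controls enter the sum, and their levels differed between NT3 and NT4. The part of that difference in these departures was not tested beyond the values with either control alone.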

How the results depend on the processing

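Of 327 calls of members, 241 held in all of their alternatives, and over 5799 pairs of a call and an alternative 5528 kept direction and threshold, 271 lost the threshold and 0 reversed. The count of members past the threshold moved by over 1.5 times in these cases. In CDK4 knockdown it was 17 with NT3 as the only control and 2 in a fit of only the groups compared, against 7. In that kind of fit it was 3 for NT4 against NT3 (18 in the fit of all libraries) and 15 for CCND1 against CDK6 knockdown (9). For the departure from the sum it was 13 with NT3 alone, 1 with NT4 alone and 1 in a fit of only the groups compared, against 4. Leaving out each library in turn gave 30 to 35 in senescent controls, 14 to 22 for NT4 against NT3, 27 to 32 in CCND1, 5 to 13 in CDK4, 33 to 35 in CDK6 and 30 to 35 in dual knockdown. It gave 1 to 13 for the departure, 27 to 29 for CDK6 against CDK4, 5 to 7 for CCND1 against CDK6 and 7 to 8 for dual against CDK6 knockdown. Against proliferating cells it gave 25 to 27, 30 to 32, 30 to 32 and 29 to 31 in CCND1, CDK4, CDK6 and dual knockdown. The CDK4 count of 13 was without NT3 replicate 3. No paired analysis was possible because the columns of the table carry no replicate number and cannot be tied to the numbers in the labels. The library numbers in their headers form 3 runs with 1 library of each irradiated group, which no label calls a pairing. A block by these runs, chosen after seeing them, gave 30, 7, 34, 31 and 3 members in CCND1, CDK4, CDK6 and dual knockdown and in the departure. The correlation of deviations within such a run had a median of 0.037. Quantile normalization left these calls in dual knockdown past the threshold but lowered them by over 1.5 times, CALD1 to 0.44, MYL6 to 0.25, MYL9 to 0.46, MYLK to 0.35, MYH9 to 0.23, VCL to 0.30, FLNA to 0.32 and FHL2 to 0.15, with TPM1 in CCND1 (0.26) and ACTN1 in CDK6 knockdown (0.21). On the recovered reads, edgeR called 34 members and 42.5% of all genes in CDK6 knockdown, and DESeq2 34 and 43.4%. Depth limits the members with few reads, DES, LDB3 and PDLIM3, whose intervals are wide. The cause of these shifts was not tested.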
